A study of Homo sapiens with 2 samples.

Results

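Core spliceosome components are the proteins that, together with small nuclear RNAs (snRNAs), form the machine that removes introns from pre-mRNA. The 50 genes described here were taken from a fixed list of proteins of the small nuclear ribonucleoproteins (snRNPs), the SF3A and SF3B complexes, U2AF, the tri-snRNP, the Prp19 complex (NTC) and the DEAH-box helicases, and all 50 were found among the 54261 genes of the count table. The rule itself uses no measured value. RKO cells, a line from a human colon carcinoma, were grown in DMEM with fetal bovine serum and transiently transfected with a negative control siRNA, the si-NC group, or with siRNA targeting SRSF2, the si-SRSF2 group. SRSF2 is a serine/arginine-rich (SR) protein that binds exons and recruits this machinery. Each group was 1 RNA-seq library made with an mRNA kit, so no difference between the groups has a replicate check, and the values describe these 2 libraries.

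In the spliceosome, the U1 snRNP pairs with the start of an intron, U2AF binds the sequences at its end, and the U2 snRNP with SF3A and SF3B settles on the branch point. The tri-snRNP of U4, U6 and U5 then joins, the NTC stabilises the active site, and helicases of the DEAH and related families drive each rearrangement and finally take the complex apart. A ring of Sm proteins sits on most of the snRNAs. SR proteins such as SRSF2 act before these steps, by helping U1 and U2AF to find splice sites. The comparison therefore asks whether the mRNA levels of the machinery itself differed when this regulator was depleted.

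The siRNA oligonucleotides are shown because they are what the study changed between the libraries. The study lists 1 oligonucleotide against SRSF2, taken here to be that of the si-SRSF2 library. The sense strands, 5′ to 3′, are given with the 7 bases that pair with the seed of the antisense strand (its bases 2 to 8) in capitals.
si-NC: uucuucgaacgUGUCACGutt
si-SRSF2: uccaaauccagGUCGCGAutt
The seed site of si-SRSF2, GTCGCGA, was in the annotated 3' UTR of none of the 50 genes, against 27 (0.259%) of 10433 genes tested that had one. That of si-NC, TGTCACG, was in the 3' UTR of BUD31 and of no other member, against 321 (3.08%) of the 10433. A match is a string of letters and not evidence of repression.

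The libraries held 19931360 counts (si-NC) and 14512802 counts (si-SRSF2). Counts were scaled with TMM and expressed as CPM, the count of a gene relative to the effective size of its library, and 12620 genes averaged 1 CPM or more and are called tested here. Log2 ratios, si-SRSF2 over si-NC, were taken after adding 0.5 CPM. SRSF2, the targeted gene, had 1964 counts (si-NC) and 713 counts (si-SRSF2), or 98.5 and 49.1 CPM, so 49.9% of the control level was left. Of the markers of the labelled cell type, the epithelial keratin KRT8 had 27.4 and 42.6 CPM, KRT18 had 31.7 and 32.9 CPM, EPCAM had 8.98 and 10.1 CPM, and the intestinal factor CDX2 had 10.6 and 10.9 CPM, whereas KRT19, CDH1, VIL1, CDX1, LGR5 and MUC2 were at or under 0.502 CPM in both. The 3 leukocyte markers summed to 3 and 0 counts, the 3 endothelial ones to 4 and 2, and the 4 fibroblast ones to 31 and 26. In bulk RNA, fewer cells of a type and less RNA per cell cannot be told apart.

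Summed over its genes, the machinery took nearly the same share of both libraries. The 50 genes held 112212 (si-NC) and 81933 (si-SRSF2) counts, which was 0.563% and 0.565% of all counts. The log2 ratio of the sums was 0.00 (95% interval -0.01 to 0.02). Here and below, the interval is a Clopper-Pearson interval of the ratio. It covers counting error only, and PCR copies are not independent molecules.

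Gene by gene the ratios were small, and 47 of the 50 genes averaged 5 CPM or more. The si-NC levels of these ran from 10.2 to 499.9 CPM (median 75.9), and the si-SRSF2 levels from 12.1 to 413.7 CPM (median 87.4). The log2 ratio of these 47 ran from -0.35 for DHX38 to 0.46 for CRNKL1, with a median of 0.06. None of the 47 passed 1.5-fold. Over all genes tested, 4.18% passed 1.5-fold upwards and 3.52% downwards, and among the 9464 genes averaging 10 CPM or more the shares were 1.49% and 1.69%.

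**Figure D1:**
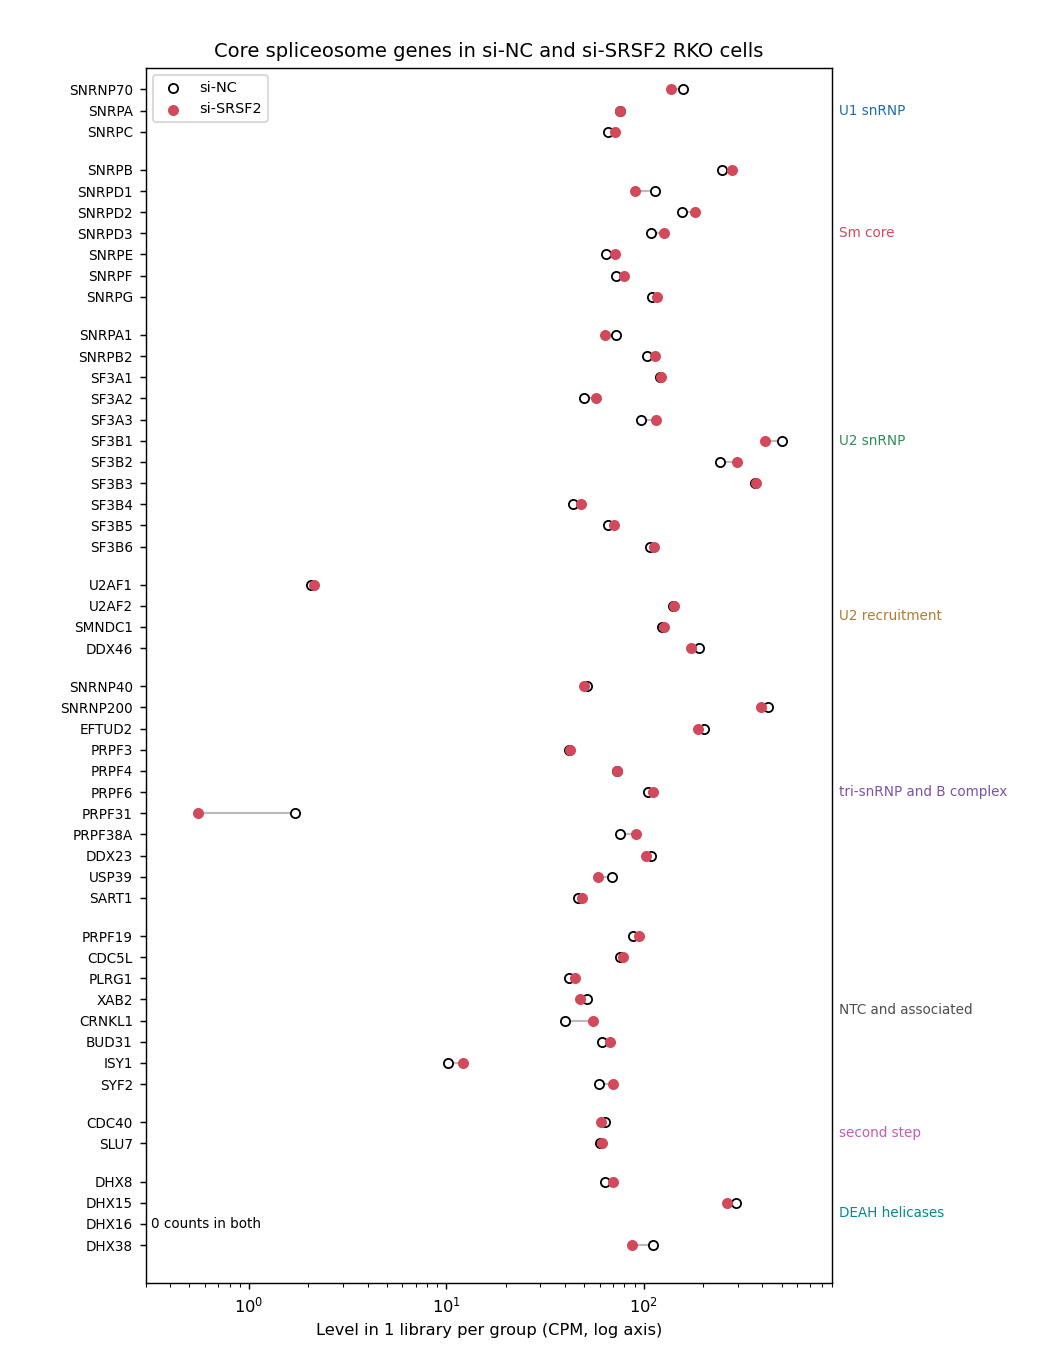
Level of each of the 50 genes in CPM (log axis) in si-NC (open circles) and si-SRSF2 (red circles), 1 library each, grouped by role. Most pairs of circles touch or nearly so, U2AF1 and PRPF31 sit near 2 CPM or below, and DHX16 had 0 counts in both libraries.

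A smaller fold separates more genes. Past 1.2-fold, 3 of the 49 members tested were higher in si-SRSF2 (SF3B2, PRPF38A and CRNKL1) and 4 were lower (SNRPD1, SF3B1, PRPF31 and DHX38), which was 6.12% and 8.16% of them against 14.9% and 17.9% of all genes tested. Among genes averaging 10 CPM or more, 6.38% of the members passed it in each direction, against 10.1% and 15.0% of genes. A smaller share of members than of genes passed this fold in either direction. The median absolute log2 ratio was 0.13 over the 49 members, 0.17 over all genes tested and 0.15 over genes averaging 10 CPM or more. The ratios also leaned upwards: 33 of the 49 (67.3%) were higher in si-SRSF2, against 46.2% of all genes tested and 44.6% of those averaging 10 CPM or more. The interval lay above 0 for 15 members (30.6%, against 21.0% of all genes) and below 0 for 11 (22.4%, against 26.7%). Intervals narrow with depth, and at 10 CPM or more they lay above 0 for 15 of 47 members and 2131 of 9464 genes, and below 0 for 10 and 2930. These genes work in 1 machine and are not independent of each other, so the shares are a description.

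**Figure D2:**
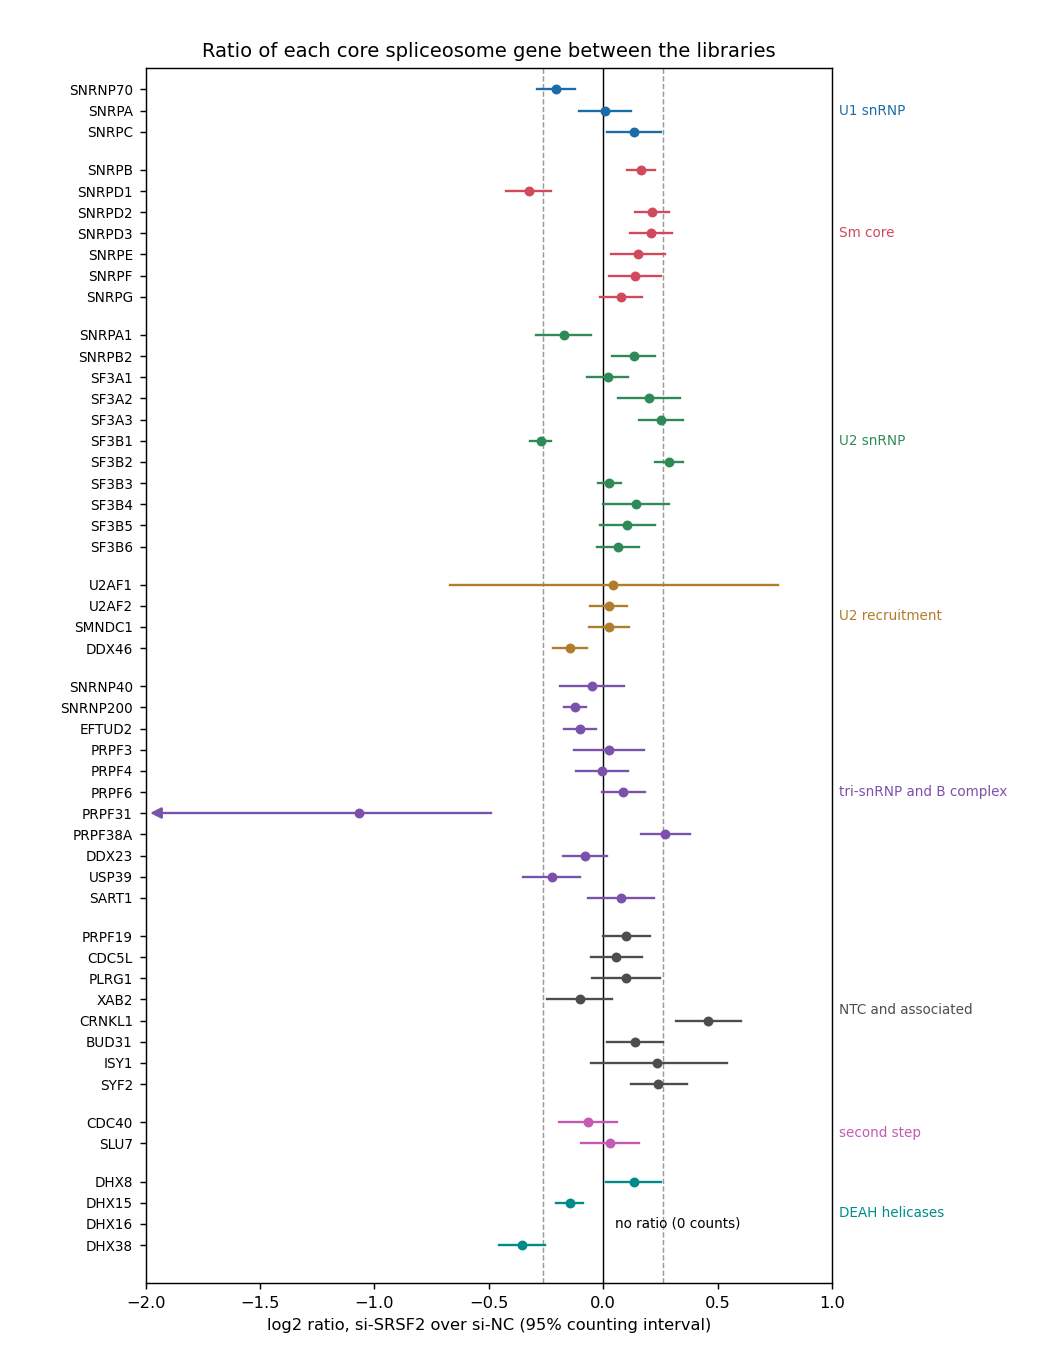
The log2 ratio (si-SRSF2 over si-NC) for each gene (points) with its 95% counting interval (lines), coloured by role, with dashed lines at 1.2-fold. Points lie on both sides of 0, the Sm core is to the right except SNRPD1, and the interval of PRPF31 runs on to -2.95, beyond the axis.

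The Sm core is the ring of 7 proteins around U1, U2, U4 and U5 snRNA, and 6 of its 7 genes were a little higher in si-SRSF2, where 46.2% of all genes tested were higher. The interval lay above 0 for 5 of the 7, against 21.0% of all genes. SNRPD2 had 3124 and 2637 counts (si-NC first, here and in what follows), or 156.7 and 181.7 CPM, a log2 ratio of 0.21 (interval 0.14 to 0.29). SNRPD3 had 109.2 and 126.2 CPM, a log2 ratio of 0.21 (0.12 to 0.30). SNRPB, the most abundant of the 7 by counts, had 249.8 and 280.2 CPM, a log2 ratio of 0.17 (0.11 to 0.23). SNRPE, SNRPF and SNRPG followed with log2 ratios of 0.15, 0.14 and 0.08, and the interval of SNRPG reached below 0.

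SNRPD1, which encodes SmD1, the partner of SmD2 in the ring, went the other way. It had 2272 and 1320 counts, or 114.0 and 90.9 CPM, and the log2 ratio was -0.32 (interval -0.42 to -0.23). Within the Sm core, a comparison that no library scaling enters, SNRPD1 made up 13.0% and then 9.60% of the counts. Against the other 6 genes its log2 ratio was -0.49 (-0.60 to -0.39, from the 4 counts), while the summed counts of these 6 had a log2 ratio of 0.17 (0.13 to 0.20). The annotated canonical transcript of SNRPD1 (chr18:21612314-21633520, plus strand) is 4858 nt long, and 25.8% of the 31-base words (31-mers) of its exons also occurred elsewhere on the primary chromosomes. Their part in the result was not tested.

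In the U2 snRNP the large SF3B subunits differed in direction. SF3B1, the large scaffold that holds the branch point, had 9963 and 6004 counts, or 499.9 and 413.7 CPM. Its log2 ratio was -0.27 (interval -0.32 to -0.23), so 82.8% of the control level remained. SF3B2, which lies against SF3A in the same particle, had 4869 and 4329 counts, or 244.3 and 298.3 CPM, a log2 ratio of 0.29 (0.23 to 0.35). SF3B3, a propeller protein bound to SF3B1, was level, with 365.9 and 372.9 CPM and a log2 ratio of 0.03 (-0.02 to 0.08).

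These subunits of a single complex therefore differed from each other by more than counting error. Within the U2 group of 11 genes, the share of SF3B1 went from 28.2% to 23.1% of the counts, and its log2 ratio against the other 10 was -0.39 (-0.44 to -0.33). For SF3B2 the share went from 13.8% to 16.7%, with 0.32 (0.26 to 0.39) against the rest. The small subunits SF3B4, SF3B5 and SF3B6 had log2 ratios of 0.14, 0.11 and 0.06, and each of their intervals held 0. All 6 SF3B genes summed to a log2 ratio of -0.01 (-0.04 to 0.02), and without SF3B1 to 0.13 (0.09 to 0.16).

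SF3A joins U2 to SF3B, and its genes were level or higher. SF3A3 had 96.7 and 115.2 CPM, a log2 ratio of 0.25 (interval 0.16 to 0.35). SF3A2 had 50.1 and 57.5 CPM, a log2 ratio of 0.20 (0.07 to 0.33), and SF3A1 had 120.6 and 122.3 CPM, 0.02 (-0.07 to 0.11). The U2-specific proteins SNRPA1 and SNRPB2, which bind each other on U2 snRNA, had opposite signs. SNRPB2 had 104.1 and 114.2 CPM (log2 ratio 0.13, 0.04 to 0.23), whereas SNRPA1 had 72.1 and 63.9 CPM (-0.17, -0.29 to -0.05). For SNRPA1, 77.6% of exon 31-mers also occurred elsewhere on the primary chromosomes, so reads could have been shared with a copy.

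Among the U1 proteins, SNRNP70, which binds the first loop of U1 snRNA, had 158.4 and 137.3 CPM, a log2 ratio of -0.21 (interval -0.29 to -0.12). SNRPC, which steadies the pairing of U1 with the intron, had 65.6 and 72.0 CPM, a log2 ratio of 0.13 (0.01 to 0.25). SNRPA, on the second loop, was level at 75.5 and 76.0 CPM. The 3 genes summed to a log2 ratio of -0.07 (-0.13 to -0.01).

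Of the 4 genes whose proteins bring U2 to the intron, DDX46 had an interval below 0 and none had one above, against 26.7% and 21.0% of all genes tested. U2AF2, the large U2AF subunit that binds the polypyrimidine tract, had 140.9 and 143.2 CPM, a log2 ratio of 0.02 (interval -0.06 to 0.11). Of its exonic bases 74.0% lay within the span of an unnamed gene on the opposite strand. SMNDC1, also called SPF30, had 124.0 and 126.2 CPM, 0.02 (-0.06 to 0.11). DDX46, the helicase that readies U2 for the branch point, had 191.7 and 173.4 CPM, -0.14 (-0.22 to -0.07). U2AF1, the small U2AF subunit that reads the last bases of the intron, is described with the genes of few counts.

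Of the tri-snRNP and B complex genes 7 of 11 were lower in si-SRSF2, against 53.8% of all genes tested, and their median log2 ratio was -0.05, against -0.02 over all genes, so the group was near the background. The U5 helicase SNRNP200, which unwinds U4 from U6, had 8546 and 5719 counts, or 428.8 and 394.0 CPM, a log2 ratio of -0.12 (interval -0.17 to -0.07). EFTUD2, the U5 GTPase, had 201.2 and 187.7 CPM, -0.10 (-0.17 to -0.03). The 4 U5 genes, with SNRNP40 and PRPF6, summed to -0.08 (-0.12 to -0.05). USP39, needed to assemble the tri-snRNP, had 68.8 and 58.9 CPM, a log2 ratio of -0.22 (-0.35 to -0.10). Against these, PRPF38A, a B complex protein, had 1513 and 1332 counts, or 75.9 and 91.8 CPM, 0.27 (0.17 to 0.38). Of the exonic bases of PRPF38A, 91.6% lay within the span of TUT4, introns included, on the opposite strand. Overlap with the exons of TUT4 was not measured, and its part in the result was not tested. PRPF3 and PRPF4, the U4/U6 proteins, were level, with log2 ratios of 0.03 and 0.00.

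In the NTC and its partners 7 of 8 genes were higher in si-SRSF2, against 46.2% of all genes tested, and 3 had an interval above 0, against 21.0%. The median log2 ratio was 0.12, against -0.02 over all genes, with a summed log2 ratio of 0.14 (interval 0.09 to 0.18). CRNKL1, a scaffold of repeats also known as CRN, had the highest ratio of all 50 genes. It had 801 and 803 counts, although the si-SRSF2 library was the shallower, or 40.2 and 55.3 CPM, a log2 ratio of 0.46 (0.32 to 0.60), which was 138% of the control level. SYF2 had 59.2 and 70.0 CPM (0.24, 0.12 to 0.37) and BUD31 had 61.7 and 67.9 CPM (0.14, 0.02 to 0.26). PRPF19, the ubiquitin ligase that names the complex, had 88.1 and 94.5 CPM (0.10, 0.00 to 0.20), an interval that just reached below 0. CDC5L and PLRG1, which bind PRPF19, had log2 ratios of 0.06 and 0.10. XAB2, also linked to transcription-coupled repair, was the only one of the 8 below 0, at 51.4 and 47.8 CPM (-0.10, -0.24 to 0.04).

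The DEAH-box helicases differed in direction. DHX38, the human Prp16, which remodels the complex between the catalytic steps, had 2227 and 1268 counts, or 111.7 and 87.4 CPM. Its log2 ratio of -0.35 (interval -0.46 to -0.25) was the lowest of the 47 genes averaging 5 CPM or more, and 78.2% of the control level remained. DHX15, the human Prp43, which takes the spent complex apart, had 292.6 and 264.2 CPM, -0.15 (-0.21 to -0.09). DHX8, the human Prp22, which releases the joined exons, had 64.0 and 70.2 CPM, 0.13 (0.01 to 0.25). The second-step factors CDC40 and SLU7 were level, with log2 ratios of -0.07 and 0.03 and intervals that held 0. DHX16, the human Prp2, had 0 counts in both libraries.

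**Figure D3:**
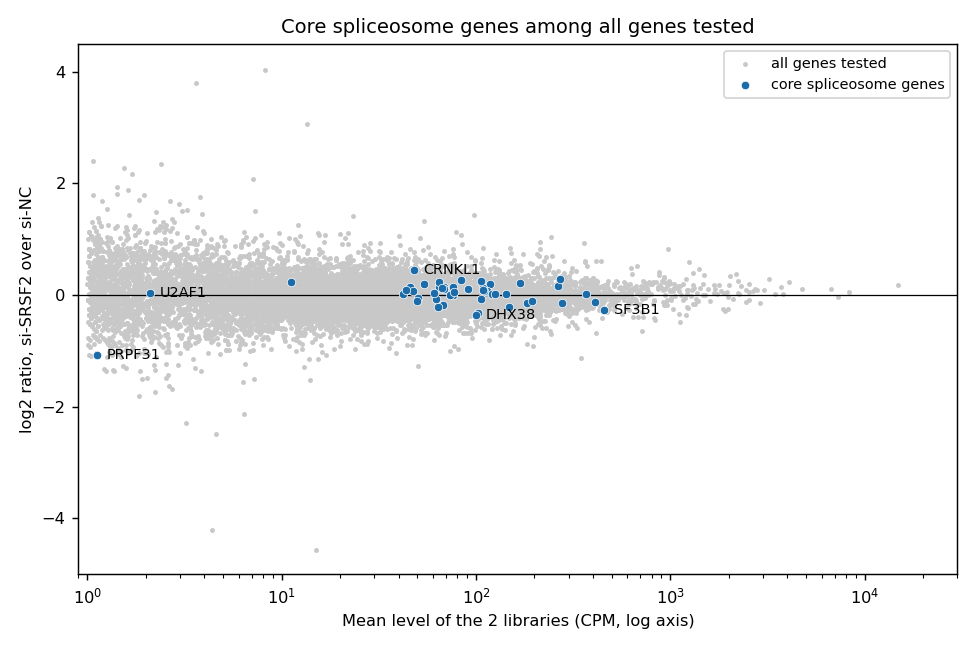
The log2 ratio (si-SRSF2 over si-NC) against mean level (CPM, log axis) for all 12620 genes tested (grey) and the 49 core spliceosome genes among them (blue). The blue points lie inside the grey band, with CRNKL1 on top, DHX38 and SF3B1 towards its lower edge, and PRPF31 and U2AF1 far to the left at few counts.

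Levels of different genes were compared per kilobase of canonical transcript, in si-NC. SNRPD2 was highest at 304.4 CPM per kb, followed by SNRPB (230.8), SNRPG (186.3), SF3B6 (165.7) and SNRPF (159.9). The 7 Sm genes, whose proteins occur together in every ring, spanned 23.5 CPM per kb (SNRPD1) to 304.4. This range depends on the transcript model, since the annotated length ran from 452 nt for SNRPF to 4858 nt for SNRPD1. SF3B1 and SF3B2 were alike at 77.3 and 74.7 CPM per kb. At the low end, 4 genes stood apart: ISY1 at 2.83, U2AF1 at 2.18, PRPF31 at 0.931 and DHX16 at 0 CPM per kb. The next gene up was CRNKL1 at 10.0 CPM per kb.

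Of these 4 low genes, U2AF1, PRPF31 and DHX16 had 98.3% to 100% of their exon 31-mers elsewhere in the assembly. The exons of ISY1 lie almost wholly within the span of another annotated gene. U2AF1 (chr21:43092956-43107570, minus strand) had 41 and 31 counts, or 2.06 and 2.14 CPM, beside 140.9 and 143.2 CPM for U2AF2. In GRCh38 the 8 exons of U2AF1 recur on the same chromosome, and 7 of the 8 were identical there. Of 945 exonic bases 944 matched, the exception being A12C, counted from the first base of exon 1. The copy, which the count table lists as U2AF1L5, had 54 and 42 counts, or 2.71 and 2.89 CPM. Exon 2 is printed from both places, as it reads in the mRNA and all in lower case because no base differs, to show the identity of the copies.
U2AF1 exon 2 at chr21:43104315-43104402 (GRCh38, minus strand): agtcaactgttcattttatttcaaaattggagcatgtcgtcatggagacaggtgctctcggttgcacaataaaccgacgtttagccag
Copy at chr21:6495993-6496080 (GRCh38, minus strand): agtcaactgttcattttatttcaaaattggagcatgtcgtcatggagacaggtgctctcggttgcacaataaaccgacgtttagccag

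DHX16 (chr6:30653127-30673006, minus strand) and PRPF31 (chr19:54115754-54131713, plus strand) lie in regions that the GRCh38 assembly also holds as alternate versions. All 31-mers within their exons (100%) were found on alternate scaffolds, on 7 scaffolds for DHX16 and on 9 for PRPF31. No other member had a share above 14.9%. DHX16 was at 0 in both libraries, a count that allows up to 3 counts, or 0.151 CPM (si-NC) and 0.207 CPM (si-SRSF2). PRPF31, which bridges U4/U6 and U5 in the tri-snRNP, had 34 and 8 counts, or 1.71 and 0.551 CPM. Its log2 ratio of -1.07 (interval of the ratio without pseudocount -2.95 to -0.49) was the only one of the 49 past 1.5-fold, and also the only one past 2-fold, against 0.499% of all genes tested that passed 2-fold downwards and 0.848% upwards. It rests on 42 counts in all. With a pseudocount of 2 CPM or with a minimum of 5 CPM, no member passed 1.5-fold.

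ISY1 (chr3:129127415-129161063, minus strand), an NTC partner, had 204 and 176 counts, or 10.2 and 12.1 CPM. Of its exonic bases 99.3% lie within the span of ISY1-RAB43, an annotated read-through gene on the same strand. The count table lists ISY1-RAB43 at 0 in both libraries. SNRPD3, with 2176 and 1831 counts, has 99.8% of its exonic bases within the span of an unnamed gene of the annotation used here. Overlap with the exons of these other genes was not measured. Whether the authors' alignment index held alternate scaffolds, and how multiply placed or ambiguous reads were counted, is not given in the sources used here, and the part of these overlaps in the low counts was not tested. The levels of DHX16, PRPF31, U2AF1 and ISY1 are therefore uncertain in both libraries.

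**Figure D4:**
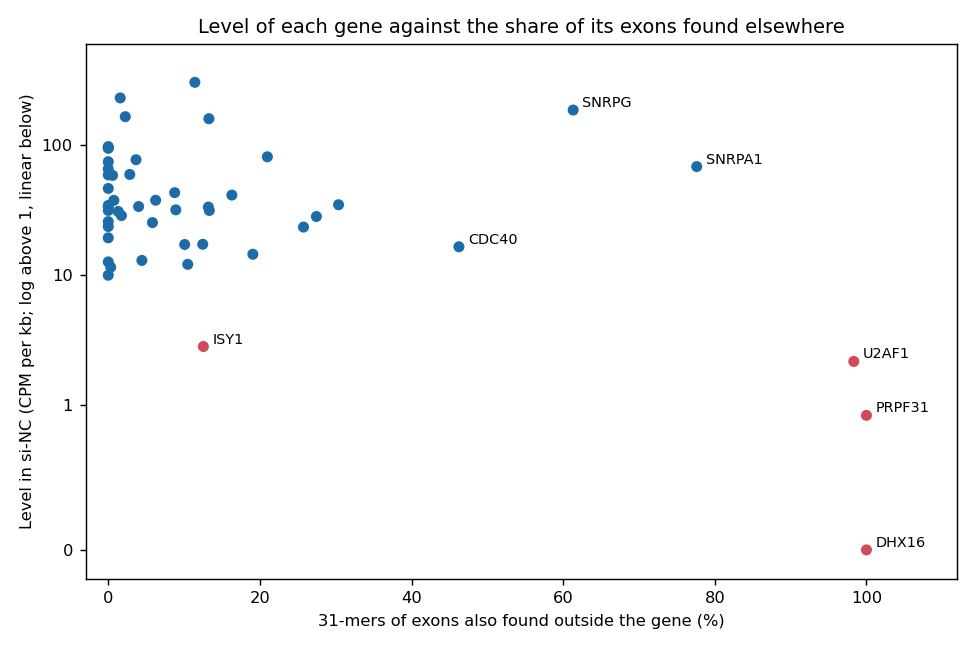
Level in si-NC (CPM per kb) of each of the 50 genes against the share of 31-mers of its exons that also occur outside the gene in GRCh38, taken as the larger of the share on the primary chromosomes and that on alternate scaffolds. The 4 lowest genes are red: DHX16, PRPF31 and U2AF1 lie at 98.3% to 100%, and ISY1, which lies under a read-through gene, at 12.5%.

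Some short snRNP genes also have pseudogenes of like sequence. The count table lists 67 pseudogenes named after 12 of the members, 20 each for SNRPC and SNRPG and 10 for SNRPE. Together they held 188 and 195 counts, against 22815 and 18718 for their parents. The largest share was that of SNRPG, whose pseudogenes had 120 counts, 5.44% of the parent's 2205. For SNRPG 61.3% of exon 31-mers occurred elsewhere on the primary chromosomes.

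Longer genes had lower ratios among the members. Across the 47 members averaging 5 CPM or more, Spearman's rho between the log2 ratio and the span was -0.44, against -0.12 across 8941 genes averaging 10 CPM or more with a canonical transcript. With the number of exons it was -0.33 against -0.08, with transcript length -0.26 against -0.11, with mean CPM -0.23 against 0.02 (9464 genes), and with GC content -0.02 against 0.05. Genes are not independent replicates, and the points share the same 2 libraries, so no p is given. The 24 members that span up to 18.1 kb had a median log2 ratio of 0.13, with 21 higher, 12 intervals above 0 and 1 below 0, that of SNRPA1. The 23 longer members had a median of -0.05, with 11 higher, 3 intervals above 0 and 9 below 0, among them SF3B1, SNRNP200, DHX15 and DDX46. At the same limit, genes averaging 10 CPM or more had medians of 0.00 and -0.05. Of the shorter ones 50.3% were higher, with 26.8% of intervals above 0 and 24.2% below. Of the longer ones 41.2% were higher, with 19.9% above 0 and 34.8% below, so the longer members were near their background.

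**Figure D5:**
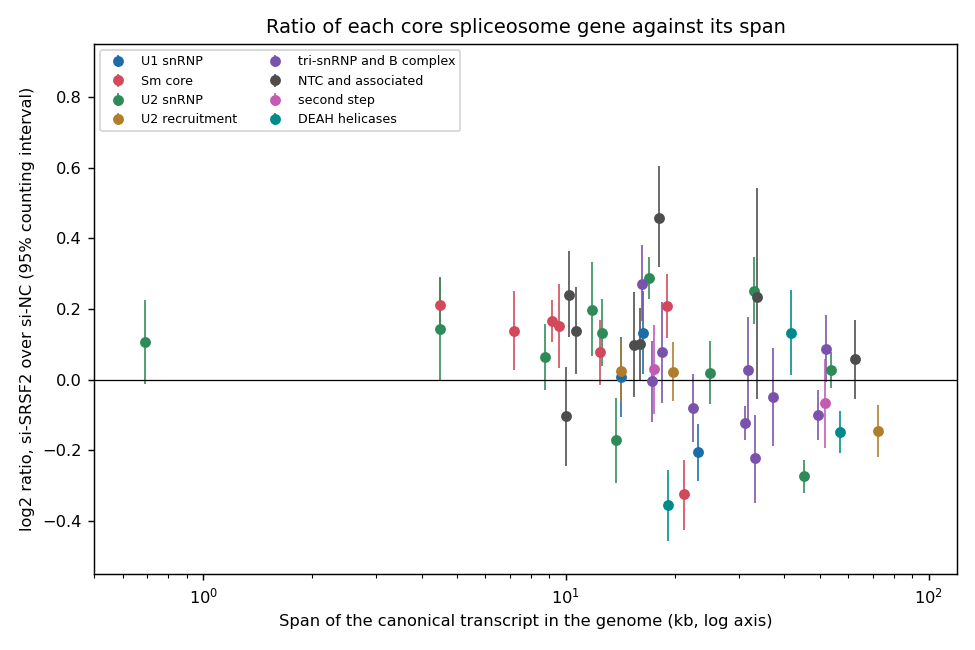
The log2 ratio (si-SRSF2 over si-NC), with its 95% counting interval, against the genomic span of the canonical transcript (kb, log axis) for the 47 members averaging 5 CPM or more, coloured by role. Genes up to 18.1 kb lie mostly above 0 and longer ones on both sides of it.

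Other genes of the pathway came from a separate list. Of 86 such spliceosome and snRNP assembly genes in the table, 83 were tested, with 55 higher and 28 lower in si-SRSF2, where 46.2% of all genes were higher, and a median log2 ratio of 0.07. Past 1.2-fold there were 14 higher and 4 lower, against 14.9% and 17.9% of all genes. Past 1.5-fold there were 2 higher (PRPF8 and WBP4) and 0 lower, against 4.18% and 3.52%. Intervals lay above 0 for 32 of the 83 and below 0 for 13, against 21.0% and 26.7% of all genes. The LSm proteins, which form the ring on U6 snRNA, had a median of 0.03 over the 6 tested, with intervals above 0 for LSM3 and LSM7 and intervals that held 0 for the other 4, against 21.0% of all genes above 0 and 26.7% below. Other tri-snRNP and B complex genes had a median of 0.13, other U1 and A complex genes 0.09, other NTC and catalytic genes 0.03, and the exon junction complex 0.07. WBP4, a B complex protein, had 269 and 309 counts, or 13.5 and 21.3 CPM, a log2 ratio of 0.64. At the other end were GEMIN2 and WDR77, which help to load the Sm ring, both with a log2 ratio of -0.40, from 348 to 190 counts and from 708 to 390.

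PRPF8, the large U5 protein at the catalytic centre, had 153 and 230 counts, or 7.68 and 15.8 CPM, a log2 ratio of 1.0, while its U5 partners SNRNP200 and EFTUD2 were at 428.8 and 201.2 CPM in si-NC. As for DHX16 and PRPF31, all 31-mers within its exons (100%) were found on an alternate scaffold, and the part of this in its counts was not tested.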

How the data were processed

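RNA-seq was done on 1 si-NC and 1 si-SRSF2 library of RKO cells, as 150 bp pairs from a stranded mRNA kit. Per the labels and the methods, the authors aligned clean reads to GRCh38 with HISAT2 2.0.4 and made counts per gene with HTSeq. The counts were deposited by symbol, without normalization, and the strand setting of the counting is not given in the sources used here. All counts were scaled by TMM (edgeR 4.0.16, R 4.3.3). Log2 ratios used a pseudocount of 0.5 CPM and genes averaging 1 CPM or more. Clopper-Pearson intervals (95%, SciPy 1.17.1) have no pseudocount. Ratios against the rest of a role group have a log-normal interval from the 4 counts. With 1 library per group no test was run, and "past 1.5-fold" is a size, not a call of significance.

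Members were grouped by role, and every exonic 31-mer of their canonical transcripts (GENCODE release 44) was searched in GRCh38. The methods name Ensembl release 100 for the authors' annotation, so genes were matched by symbol and overlaps between genes may differ from those the counting used. Overlap with another gene was taken over the whole span of that gene, introns included. All 50 members had a canonical transcript, as did 11294 (89.5%) of the 12620 genes tested. The members and lists were chosen with earlier results of these data known. Named genes were SRSF2, the members by role, and the 2 highest and 2 lowest of the other lists at 5 CPM or more. Cell-type markers came from their lists. Other genes named (LSM2, LSM3, LSM7, PUF60, SMN1, SMN2, GCFC2, TFIP11, DBR1, and U2AF1L5, ISY1-RAB43 and TUT4 as copies or overlapping genes) were chosen after their values were seen. The calculations were tested on simulated data. Alternatives were other scaling (DESeq2 1.42.0 size factors, library totals, upper quartiles, and TMM without mitochondrial genes and the 20 most abundant), other pseudocounts (0.1 and 2 CPM), other minimum levels (none and 5 CPM), and leaving out members with over 50% of their 31-mers elsewhere.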

Additional observations from a re-analysis of the deposited data

How the results depend on the processing

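With 1 library per group no replicate could be left out. No paired analysis was possible because the design holds a single library of each transfection. Of 263 values recomputed under 9 alternatives, 260 stayed within 1.5 times (counts), within their interval (single genes) or within 0.11 (medians, the median half-width of the members' intervals). The 3 others were counts. The number of members past 1.2-fold upwards was 3 and became 5 with upper-quartile factors. With the same factors the number with an interval above 0 went from 15 to 21, which is within the limit of 1.5 times. The number past 1.5-fold was 1, PRPF31, and became 0 with a pseudocount of 2 CPM and 0 with a 5 CPM minimum, the first of which shrinks low counts by construction and the second of which removes that gene. Part of the agreement was fixed in advance. The minimum level does not enter the ratio of a single gene, and the pseudocount does not enter an interval. The scaling factors (si-SRSF2 over si-NC) of DESeq2, library totals and the reduced TMM were 0.9999, 1 and 1.0001, beside 1.0001 for TMM. The median log2 ratio of the members stayed between 0.06 and 0.08, and that of SRSF2 between -1.0 and -0.97. The median of the second-step pair ran from -0.02 to 0.01. Half-widths of the intervals ran from 0.05 to 0.30 for members averaging 5 CPM or more. A difference smaller than the half-width of its gene could be counting error, and a larger one has no replicate check.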

Other observations

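The RNA partners of these proteins could not be followed. The 19 spliceosomal snRNA genes looked up held 1 count in si-NC and 4 in si-SRSF2, with any count in 4 of them, in libraries made with an mRNA kit. Genes of the minor spliceosome, which removes a rare class of introns, had a median log2 ratio of 0.12 over the 8 tested, with 5 higher and 3 lower, where 46.2% of all genes tested were higher. The 15 tested genes for the assembly of snRNPs had 9 higher and 6 lower, with a median of 0.07, and 5 intervals above 0 and 5 below, against 21.0% and 26.7% of all genes. The 3 genes for the disassembly and debranching of the intron lariat had a median of 0.17. The interval lay above 0 for GCFC2 and held 0 for TFIP11 and DBR1, against 21.0% of all genes above 0 and 26.7% below.

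Of the 86 other genes searched, 5 had at least 95% of their exon 31-mers on alternate scaffolds. LSM2, of the ring on U6, had 0 counts in both libraries, while the other 6 LSm genes looked up had 412 to 2586 counts in si-NC. PUF60, a helper of U2AF, had 168 and 103 counts. PRPF8 was low as described. The other 2, the near-identical copies SMN1 and SMN2, had 1252 and 1089 counts and 3 and 3 counts. For each of them 96.9% of exon 31-mers also occurred elsewhere on the primary chromosomes. The part of either share in the counts was not tested.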
